A study of Mus musculus with 9 samples.

Results

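Mature miR-146a-5p, miR-146b-5p, miR-155-5p and miR-21a-5p (mmu-miR-146a-5p, mmu-miR-146b-5p, mmu-miR-155-5p and mmu-miR-21a-5p in the count table), miRNAs often tied to inflammatory signaling in blood cells, were followed through sRNA-seq libraries of mouse Meis1/Hoxa9 preleukemic cells. They are 4 of the 817 mature miRNAs in the deposited count table and were taken as named, with no threshold on their values. Earlier results of these data were known when members and tests were chosen, which limits the p-values below. The libraries comprised 5 Tut4/7 CTL and 4 Tut4/7 cKO samples. In Tut4/7 cKO cells, both Tut4 and Tut7 carry fl/fl alleles and are deleted by Vav-iCre, which is active in the hematopoietic system. The Tut4/7 CTL cells, labelled WT in the sample records, come from littermates with the same floxed alleles and without iCre. Both genotypes were made from c-Kit+ fetal liver cells carrying retroviral Meis1 and Hoxa9, so both are transformed. The study replated such cells with stem cell factor, IL-3, IL-6 and granulocyte-macrophage colony-stimulating factor. Its liquid culture held stem cell factor, IL-6 and IL-3, and the culture of the cells sequenced here is not stated. The study describes the replicates of its mouse experiments as derived from separate animals or embryos, while the labels do not tie a library to an embryo or culture.

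TUT4 and TUT7 are terminal uridylyltransferases, enzymes that add uridines to RNA 3′ ends, where the added base is read as T in sequencing. The miR-146a gene is induced through NF-κB, and miR-146a is known as a brake on that pathway through Irak1 and Traf6. miR-155 is processed from the noncoding transcript Mir155hg, is induced in activated myeloid and lymphoid cells, and targets Inpp5d and Socs1. miR-21 lies in Vmp1, targets Pdcd4 among others, and is abundant in many cancers and activated leukocytes.

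The mature sequences are shown because miR-146a and miR-146b share their seed, so that they address the same seed matches and differ only towards the 3′ end. They are RefSeq sequences written 5′ to 3′, with bases 2 to 8, the seed, in capitals; all 4 members were found there.
miR-146a-5p: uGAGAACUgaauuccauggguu
miR-146b-5p: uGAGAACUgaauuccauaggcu
miR-155-5p: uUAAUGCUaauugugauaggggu
miR-21a-5p: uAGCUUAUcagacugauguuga
Counted from 1 at the 5′ end, with the base of miR-146a-5p first, the miR-146 sequences differ by G18A and T21C. miR-155-5p and miR-21a-5p have seeds of their own.

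The base that follows each mature sequence in the genome bears on what an extra T means, since a T that the gene encodes cannot be told apart from one added after cutting. In the mouse genome build GRCm39, miR-146a-5p lies at chr11:43265262-43265283 on the minus strand, in Mir146 and an exon of the lncRNA Gm73818. miR-21a-5p lies at chr11:86474946-86474967 on the minus strand, in Mir21a and an exon of the protein-coding gene Vmp1. miR-155-5p lies at chr16:84511031-84511053 on the plus strand, in Mir155 and an exon of its host Mir155hg, opposite an intron of Mrpl39. The miR-146b-5p sequence is at chr19:46331229-46331250 on the plus strand, in Mir146b and an intron of Mfsd13a, with 2 further identical copies in the same intron at chr19:46330713-46330734 and chr19:46330996-46331017. The 6 genomic bases after each mature sequence are given in capitals.
miR-146a-5p: tgagaactgaattccatgggttATATCA
miR-146b-5p: tgagaactgaattccataggctGTGAGC
miR-155-5p: ttaatgctaattgtgataggggtTTTGGC
miR-21a-5p: tagcttatcagactgatgttgaCTGTTG
miR-146a-5p was followed by A, miR-146b-5p by G at all 3 matches and miR-21a-5p by C. Only miR-155-5p of the 4 was followed by T, with 3 in a row, so reads of miR-155-5p with 1, 2 or 3 extra Ts match the genome throughout.

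The longest tailed reads found for each member are shown next, with the extra Ts in capitals.
miR-146a-5p with 2 Ts: tgagaactgaattccatgggttTT
miR-146b-5p with 2 Ts: tgagaactgaattccataggctTT
miR-155-5p with 3 Ts: ttaatgctaattgtgataggggtTTT
miR-21a-5p with 2 Ts: tagcttatcagactgatgttgaTT
Over the 9 libraries, miR-155-5p had 4460 reads with 1 extra T, 403 with 2 and 22 with 3. miR-21a-5p had 4814 reads with 1 T and 18 with 2, miR-146b-5p had 457 and 10, and miR-146a-5p had 53 and 4. A read was counted as uridylated when it covered the mature 3′ end and went on with 1 to 3 Ts. A T added to a shortened miRNA was therefore not counted, and for the 3 members that end in T it can look like an untailed end.

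Libraries held 209702 to 316620 miRNA reads in Tut4/7 CTL and 175462 to 479342 in Tut4/7 cKO. Over all miRNAs, 10.8% to 24.8% of reads were uridylated in Tut4/7 CTL libraries and 7.55% to 19.3% in Tut4/7 cKO libraries, the value being lowest among the controls in replicate 2. Tut4/7 cKO replicate 1, at 19.3%, was above every control except replicate 5. Tut4 and Tut7 mRNA are not measured by sRNA-seq, so the labels have no direct check here. All 5 hematopoietic miRNAs listed as markers were found, and their summed level was 38084 to 70352 CPM (reads scaled to the size of the library) in Tut4/7 CTL and 43714 to 71804 CPM in Tut4/7 cKO. Most of it was miR-181a-5p and miR-223-3p, while miR-142a-3p, a defining miRNA of blood cells, had only 12 to 55 reads a library. The other markers were scarce, miR-142a-5p with 0 to 5 reads a library and miR-150-5p with 1 to 103. Of 15 miRNAs that mark other cell types, 11 were listed, at a summed 1872 to 2855 CPM in Tut4/7 CTL and 1198 to 2640 CPM in Tut4/7 cKO. That sum came mostly from hepatocyte miR-122-5p, with 102 to 554 reads a library, and epithelial miR-200c-3p, with 51 to 502 reads. The other epithelial markers were scarce, miR-200a-3p with 1 to 20 reads a library, miR-200b-3p with 1 to 60 and miR-141-3p with at most 1. Erythroid miR-451a had at most 2 reads, and miR-144-3p, miR-124-3p, miR-133a-3p and miR-206-3p were not listed.

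The first question was whether deletion of Tut4/7 altered the levels of these miRNAs. miR-21a-5p was the most abundant of the 4 in all 9 libraries, and none of the 4 passed the test for a difference in abundance. The levels below are CPM after TMM scaling, which compares 1 miRNA across libraries. Ligation and amplification favor some sequences, so the order among miRNAs is that of their reads. The genotypes were compared in edgeR by its quasi-likelihood method, with Benjamini-Hochberg adjustment over the 205 miRNAs with enough reads, of which 1 (0.488%) was called.

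miR-21a-5p was at 8402, 7595, 4538, 8046 and 5969 CPM in Tut4/7 CTL replicates 1 to 5 and at 8271, 6590, 11493 and 14548 CPM in Tut4/7 cKO replicates 1 to 4. Replicates 3 and 4 of Tut4/7 cKO were above every control library, and the other 2 lay within the control range. The log2 fold change of Tut4/7 cKO over Tut4/7 CTL was 0.57 with an SE of 0.30 (edgeR, adjusted p = 0.377), and 0.25 without Tut4/7 cKO replicate 4 (edgeR, adjusted p = 0.598). By mean CPM miR-21a-5p ranked 28th among all miRNAs in Tut4/7 CTL and 22nd in Tut4/7 cKO.

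miR-155-5p was at 1653, 736, 2397, 2340 and 5735 CPM in Tut4/7 CTL and at 3423, 3912, 7991 and 1168 CPM in Tut4/7 cKO. Its groups overlapped widely, with the lowest library a control and the highest a knockout. The log2 fold change was 0.68 with an SE of 0.62 (edgeR, adjusted p = 0.650). It was 0.14 without Tut4/7 cKO replicate 3, 0.37 without control replicate 2 and 1.10 without control replicate 5. miR-155-5p was the most variable of the 4 among the control libraries, at 2572 ± 1891 CPM (SD, n = 5).

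miR-146b-5p was the steadiest of the 4 in control cells, at 1348, 1741, 1569, 1431 and 1590 CPM. In Tut4/7 cKO it was at 2239, 1199, 5191 and 3263 CPM, so that 3 of 4 libraries were above all controls and replicate 2 was below them. Its log2 fold change was 0.95 with an SE of 0.39, and the unadjusted p of 0.0346 from edgeR became 0.300 after adjustment. Without Tut4/7 cKO replicate 3 the log2 fold change was 0.54 (edgeR, adjusted p = 0.630).

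miR-146a-5p was at 1366, 1537, 519, 1200 and 795 CPM in Tut4/7 CTL. In Tut4/7 cKO it was at 199, 144 and 593 CPM in replicates 1, 2 and 3 and at 8571 CPM in replicate 4. The last library lay above every control, while replicates 1 and 2 lay below every control. With all libraries the log2 fold change was 1.14 with an SE of 1.03 (edgeR, adjusted p = 0.650). Without Tut4/7 cKO replicate 4 it was −1.88 (edgeR, adjusted p = 0.0661), so 1 library set the direction.

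**Figure D1:**
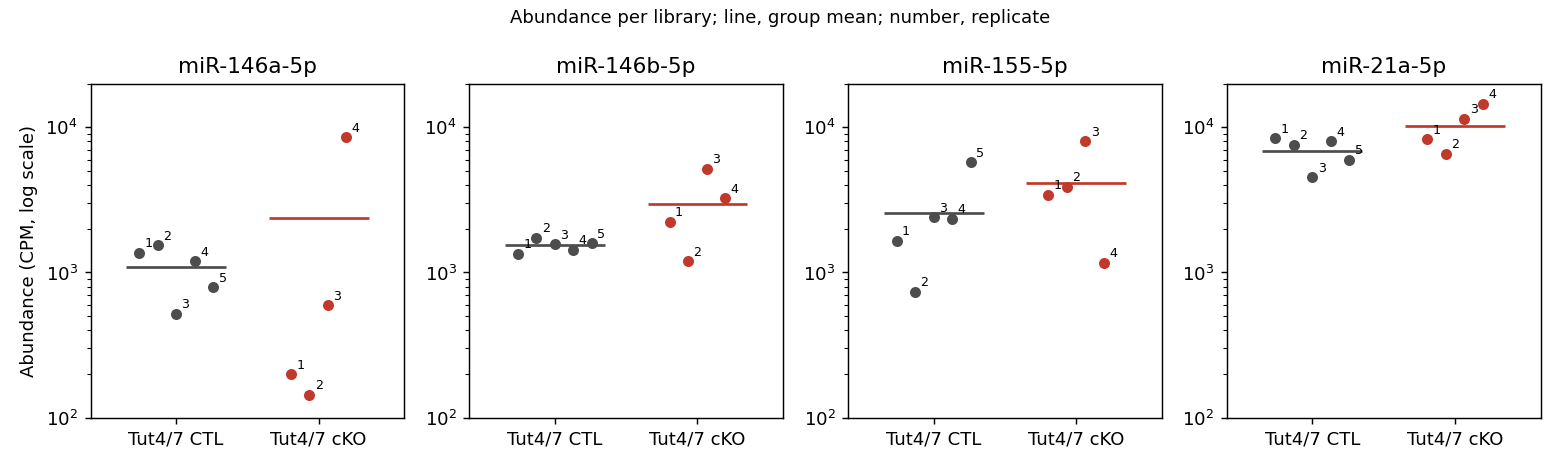
Abundance of the 4 miRNAs in CPM on a log scale, 1 point per library with its replicate number, 5 Tut4/7 CTL and 4 Tut4/7 cKO; lines are group means. miR-146a-5p spans 144 to 8571 CPM among the Tut4/7 cKO libraries, whereas miR-146b-5p stays between 1348 and 1741 CPM among the controls.

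Of the other members, miR-21a-5p was also highest of the 9 libraries in Tut4/7 cKO replicate 4, at 14548 CPM. miR-146b-5p was at 3263 CPM there, below replicate 3, and miR-155-5p had its lowest knockout level in that library. Among the 205 miRNAs, the 3 whose log2 CPM followed miR-146a-5p most closely over the 9 libraries were miR-223-5p (Pearson r = 0.957), the opposite arm miR-21a-3p (r = 0.933) and miR-22-5p (r = 0.896). These are descriptions over 9 libraries of differing depth and genotype, within each of which both miRNAs were counted, and miR-21a-3p and miR-22-5p were scarce, with 2 to 39 and 1 to 63 reads a library. miR-223-5p, from the myeloid miR-223 hairpin, was at 1809, 1937, 1536, 2337 and 1289 CPM in Tut4/7 CTL and at 870, 499, 1449 and 4478 CPM in Tut4/7 cKO. It too was highest in Tut4/7 cKO replicate 4 and lowest in replicate 2. The part of this shift in the miR-146a-5p values was not tested, and in these bulk samples a change in the share of cells and a change per cell cannot be told apart.

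The other members had different nearest miRNAs. miR-146b-5p was most like miR-30d-5p (r = 0.817), miR-222-3p (r = 0.777) and miR-26a-5p (r = 0.753). miR-155-5p was most like miR-345-3p (r = 0.924), miR-365-3p (r = 0.862) and miR-365-1-5p (r = 0.860), which had 10 to 55, 3 to 156 and 15 to 448 reads a library. miR-21a-5p was most like miR-1839-5p (r = 0.867), miR-652-3p (r = 0.840) and miR-222-3p (r = 0.825). Among the members themselves the correlation of miR-146a-5p was 0.556 with miR-21a-5p, 0.276 with miR-146b-5p and −0.602 with miR-155-5p. It was 0.713 for miR-146b-5p with miR-21a-5p, 0.252 for miR-146b-5p with miR-155-5p and −0.138 for miR-155-5p with miR-21a-5p.

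The second question was whether the extra Ts on these miRNAs depended on Tut4/7. The uridylated share of miR-146a-5p fell in Tut4/7 cKO by the test over all libraries, a call that rested on Tut4/7 cKO replicates 3 and 4, while those of miR-146b-5p, miR-155-5p and miR-21a-5p were lower on average without passing it. The odds of a uridylated against any other read were tested by the same edgeR method, with a term per library, over 143 miRNAs. Of these 85 (59.4%) fell in Tut4/7 cKO and 0 rose, with a median log2 change in the odds of −2.84. Entry required a uridylated read in 3 or more Tut4/7 CTL libraries, which tilts these figures and the medians below towards a fall. With entry blind to genotype, 151 miRNAs were tested and 85 were called, all 85 lower. By the size of the fitted fall, miR-146a-5p ranked 51st of 143 and the other members ranked 114th, 117th and 119th. For the median miRNA tested, 5.75% of reads were uridylated in Tut4/7 CTL but 0.463% in Tut4/7 cKO.

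miR-146a-5p had 19 of 305, 3 of 407, 5 of 176, 14 of 343 and 11 of 211 reads uridylated in Tut4/7 CTL replicates 1 to 5, that is 6.23%, 0.737%, 2.84%, 4.08% and 5.21%. In Tut4/7 cKO it had 2 of 29 (6.90%), 1 of 53 (1.89%), 0 of 259 and 2 of 3399 (0.0588%). Replicates 3 and 4 of Tut4/7 cKO were below every control, while replicate 1 was above every control on 29 reads. The 95% Wilson interval of that replicate ran from 1.91% to 22.0%, and the 0 of 259 reads in replicate 3 allow a share of up to 1.16%. Intervals and this limit of 3 counts cover counting error only, since the reads carry no molecular identifiers.

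Pooled over libraries, miR-146a-5p had 52 of 1442 reads uridylated in Tut4/7 CTL (3.61%, Wilson interval 2.76% to 4.70%) and 5 of 3740 in Tut4/7 cKO (0.134%, 0.0571% to 0.313%). The log2 change in the odds was −3.63 with an SE of 1.19 (edgeR, adjusted p = 0.0154). Tut4/7 cKO replicate 4 gave 3399 of the 3740 knockout reads. Without it the pooled share was 3 of 341 reads (0.880%, 0.300% to 2.55%), and the change was −1.45 and no longer called (edgeR, adjusted p = 0.290). Without Tut4/7 cKO replicate 3 it was −3.19 (edgeR, adjusted p = 0.0645), and a quasi-binomial model of all libraries gave −4.80 without a call (adjusted p = 0.256). The unweighted means, in which the 29 reads of replicate 1 count as much as the 3399 of replicate 4, were 3.82% ± 2.14 (SD, n = 5) and 2.21% ± 3.24 (SD, n = 4).

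miR-146b-5p was uridylated in 8.31%, 6.94%, 11.3%, 9.54% and 11.1% of reads in Tut4/7 CTL and in 4.28%, 5.45%, 5.51% and 7.81% in Tut4/7 cKO. Knockout replicates 1, 2 and 3 were below every control, and replicate 4 lay above control replicate 2. The means were 9.44% ± 1.86 (SD, n = 5) and 5.76% ± 1.47 (SD, n = 4), and the log2 change in the odds was −0.77 with an SE of 0.45 (edgeR, adjusted p = 0.152). Nearly all of these tails were single Ts, which at each of the 3 genomic matches differ from the encoded G.

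miR-21a-5p was uridylated in 18.8%, 24.6%, 33.2%, 25.1% and 34.1% of reads in Tut4/7 CTL and in 18.0%, 24.8%, 14.9% and 13.8% in Tut4/7 cKO. Replicates 1, 3 and 4 of Tut4/7 cKO were below every control, and replicate 2 lay within the control range. The log2 change in the odds was −0.79 with an SE of 0.46 (edgeR, adjusted p = 0.152). In Tut4/7 cKO 2359 of 14417 miR-21a-5p reads (16.4%) still carried an extra T where the genome has C, which put its mean share 20th of the 143 miRNAs.

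miR-155-5p had the highest share of reads counted as uridylated of the 4 in every library. It was 72.4%, 50.3%, 62.1%, 58.1% and 59.2% in Tut4/7 CTL and 41.2%, 63.0%, 39.6% and 56.4% in Tut4/7 cKO. Its extra Ts match the genome, so this share can hold encoded as well as added Ts, and the 2 cannot be told apart. The groups overlapped, and knockout replicate 2 was above 4 of the 5 controls. The log2 change in the odds was −0.62 with an SE of 0.49 (edgeR, adjusted p = 0.273).

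Control replicate 2 decided where 3 of these comparisons fell relative to the threshold. Without it the log2 change was −0.86 for miR-146b-5p (edgeR, adjusted p = 0.0290), −0.76 for miR-155-5p (edgeR, adjusted p = 0.0441) and −0.83 for miR-21a-5p (edgeR, adjusted p = 0.0226), while 100 of the 143 miRNAs were called lower. When the uridylated reads alone were compared, scaled by library and not set against the other reads of the same miRNA, the log2 change was −3.14 for miR-146a-5p (edgeR, adjusted p = 0.00982), −0.08 for miR-21a-5p, 0.29 for miR-146b-5p and 0.30 for miR-155-5p, with no call for the last 3. With all libraries, the uridylated shares overlapped between genotypes for each of the 4 members. Among the 138 miRNAs that had 10 or more reads in each library, the knockout libraries were all below the controls in 45 (32.6%). The 4 members are too few to be set apart from that share.

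**Figure D2:**
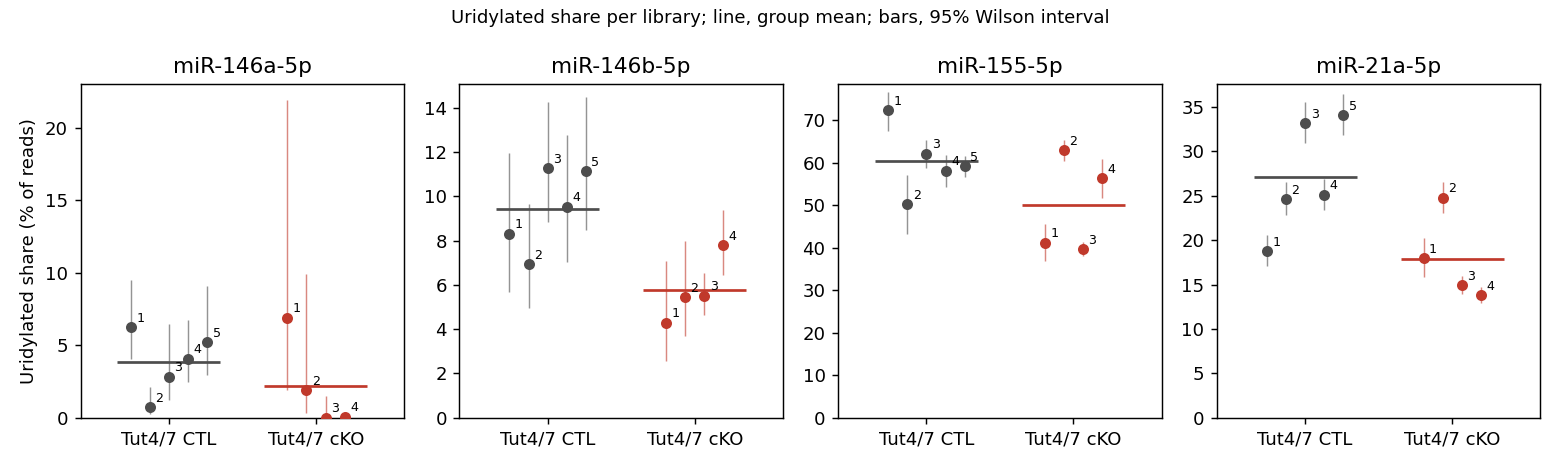
Uridylated share of reads in percent for each miRNA, 1 point per library with its replicate number and 95% Wilson interval; lines are unweighted group means and each panel has its own axis from 0. miR-155-5p, whose extra Ts match the genome, lies between 39.6% and 72.4%. The miR-146a-5p interval of Tut4/7 cKO replicate 1, with 29 reads, reaches 22.0%.

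Tail length separated the genotypes for miR-155-5p where the total share did not. Here too every extra T matches the genome, so the number of Ts does not tell encoded from added ones. Of its uridylated reads, 33.3%, 3.06%, 20.2%, 23.7% and 15.1% had 2 or 3 Ts in Tut4/7 CTL, against 2.43%, 0.110%, 0.217% and 0% in Tut4/7 cKO. The groups did not overlap, although control replicate 2 was close to knockout replicate 1. In reads, 422 of the 2160 uridylated miR-155-5p reads from Tut4/7 CTL had 2 or 3 Ts, against 9 of the 2756 from Tut4/7 cKO. The mean was lower by 18.4 percentage points in Tut4/7 cKO (p = 0.0159 by a two-sided exact permutation test, which 5 against 4 libraries cannot go below). Over the 10 exact tests of single values made on the 4 members, the Benjamini-Hochberg adjusted value of this permutation test was 0.0529. Without control replicate 2 the difference was −22.4 percentage points (p = 0.0286 by exact permutation).

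Reads of miR-155-5p with 1 T showed no such gap. They made up 48.2% ± 2.28 of all its reads in Tut4/7 CTL (SD, n = 5) and 49.8% ± 11.7 in Tut4/7 cKO (SD, n = 4). Reads with 2 Ts made up 11.5% ± 8.20 and 0.289% ± 0.476, in the same order. Control replicate 2, with 1 such read, lay within the knockout range of these. Reads with 3 Ts numbered 4, 2, 3, 2 and 11 in the control libraries and 0 in each knockout library. Of 38 miRNAs that had 5 or more uridylated reads in each library, 9 (23.7%) had non-overlapping, lower shares of 2 or 3 Ts in Tut4/7 cKO. Pooled over all miRNAs other than the 4, the share of uridylated reads with 2 or 3 Ts was 5.92% to 13.3% in Tut4/7 CTL and 1.92% to 3.84% in Tut4/7 cKO.

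**Figure D3:**
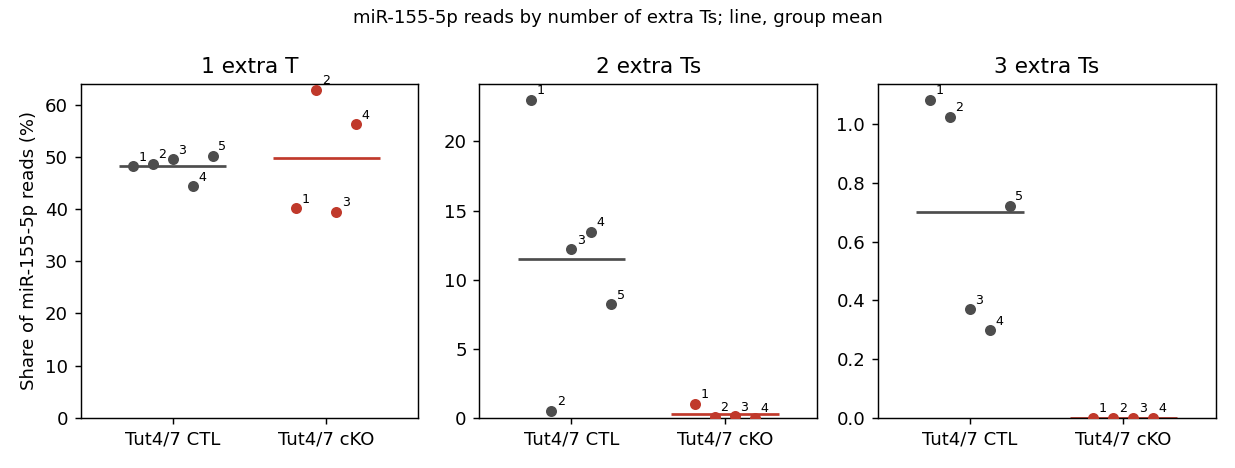
Share of all miR-155-5p reads with 1, 2 or 3 extra Ts in percent, 1 point per library with its replicate number; lines are group means and each panel has its own axis from 0. Single-T reads overlap between genotypes, at means of 48.2% and 49.8%, while 2-T reads average 11.5% in Tut4/7 CTL and 0.289% in Tut4/7 cKO.

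The other members carried few long tails. The share of uridylated reads with 2 or 3 Ts was 0.846% ± 1.20 (SD, n = 5) against 3.47% ± 3.63 (SD, n = 4) for miR-146b-5p (exact permutation test, p = 0.254) and 0.502% ± 0.264 against 0.283% ± 0.241 for miR-21a-5p (exact permutation test, p = 0.270). For miR-146b-5p the difference was 2.63 percentage points, and 1.01 without Tut4/7 cKO replicate 2, where 2 of 24 uridylated reads had 2 Ts. miR-146a-5p had too few uridylated reads for this comparison, and 2 Ts were carried by 3 of its 52 from Tut4/7 CTL and 1 of its 5 from Tut4/7 cKO.

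The miR-146 sequences, which share a seed but come from different chromosomes, were compared within each library. miR-146a-5p was less uridylated than miR-146b-5p in 8 of 9 libraries, Tut4/7 cKO replicate 1 being the exception. The difference in share was −2.08, −6.20, −8.44, −5.45 and −5.92 percentage points in Tut4/7 CTL and 2.62, −3.57, −5.51 and −7.75 percentage points in Tut4/7 cKO. Its mean over libraries was −4.70 percentage points (exact sign-flip permutation test, two-sided, p = 0.0117, 0.0529 after adjustment over the 10 tests). The count leaves out Ts added to shortened reads, and miR-146a-5p had more reads that ended 1 base early. Their mean share was 17.1% for miR-146a-5p and 4.98% for miR-146b-5p in Tut4/7 CTL, and 15.6% and 4.81% in Tut4/7 cKO. Whether uncounted tails make up part of the difference was not tested.

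Although the uridylated share of miR-146a-5p passed the test of genotype and that of miR-146b-5p did not, the changes themselves were not shown to differ. The within-library difference was −5.62 ± 2.29 percentage points in Tut4/7 CTL (SD, n = 5) and −3.55 ± 4.45 in Tut4/7 cKO (SD, n = 4), a gap of 2.07 that lay within the spread (exact permutation test, p = 0.444). The gap was 0.0106 without Tut4/7 cKO replicate 1, which had 29 miR-146a-5p reads (exact permutation test, p = 1.0), and 3.46 without Tut4/7 cKO replicate 4 (exact permutation test, p = 0.250). On a log2 ratio scale the gap had the opposite sign, −1.40 (exact permutation test, p = 0.429).

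In abundance, the log2 ratio of miR-146a-5p to miR-146b-5p reads was 0.02, −0.18, −1.60, −0.25 and −1.0 in Tut4/7 CTL and −3.50, −3.05, −3.13 and 1.39 in Tut4/7 cKO. Knockout replicates 1, 2 and 3 were thus below all controls and replicate 4 above them. The means differed by −1.47 (exact permutation test, p = 0.206). Without Tut4/7 cKO replicate 4 they differed by −2.62 (p = 0.0357 by exact permutation, which 5 against 3 libraries cannot go below).

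**Figure D4:**
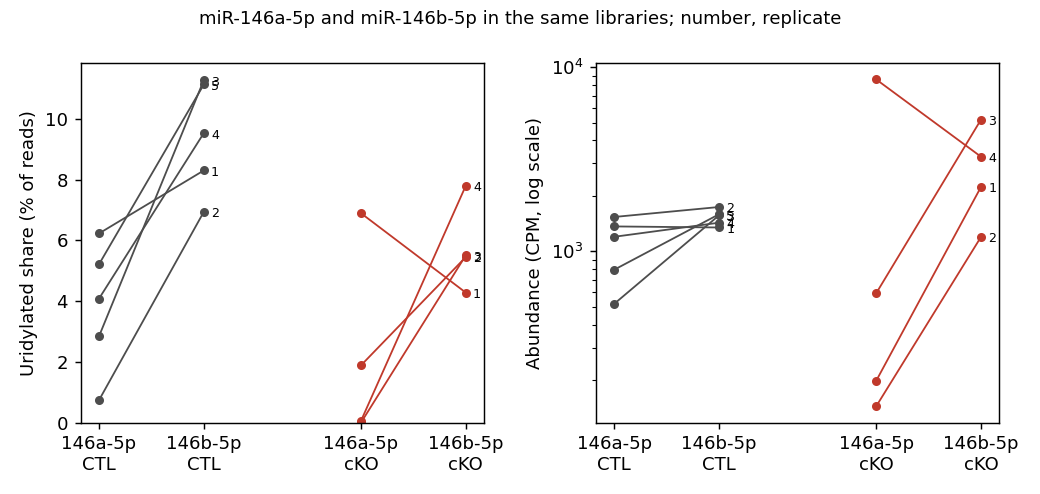
miR-146a-5p and miR-146b-5p joined within each library and numbered by replicate, as uridylated share in percent (left) and as CPM on a log scale (right). Lines rise from miR-146a-5p to miR-146b-5p in 8 of 9 libraries on the left, and Tut4/7 cKO replicate 4 crosses the other knockout libraries on the right.

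All reads of each member, tailed ones included, were grouped by where they ended relative to the mature 3′ end. Shares ending before, at and past that base make up the whole, so a change in the uridylated share moves the others. Most reads of the miR-146 sequences ended at the last mature base, whereas miR-155-5p was split mainly between that base and 1 base past it and miR-21a-5p was spread over the bases just before, at and just after it. For miR-146b-5p, 86.0%, 85.0%, 80.1%, 81.4% and 76.3% of reads ended at the mature end in Tut4/7 CTL and 91.4%, 86.4%, 89.4% and 88.3% in Tut4/7 cKO. The groups did not overlap, by a narrow margin, and the means differed by 7.09 percentage points (exact permutation test, p = 0.0159, 0.0529 after adjustment over the 10 tests). Of 138 miRNAs, 7 (5.07%) had non-overlapping, higher shares in Tut4/7 cKO and 4 (2.9%) had non-overlapping, lower ones.

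The miR-146b-5p gap in reads ending at the mature end was smaller without 1 short read. That read is shown here because its assignment moved between the miR-146 sequences. Their first 17 bases are identical, and the read that ends there was listed under 1 of them in each library.
shared read: TGAGAACTGAATTCCAT
It was listed under miR-146b-5p in all 5 Tut4/7 CTL libraries (7, 16, 12, 16 and 16 reads) and in Tut4/7 cKO replicate 1 (4 reads), but under miR-146a-5p in Tut4/7 cKO replicates 2, 3 and 4 (15, 41 and 29 reads). When reads that match both sequences were left out, the miR-146b-5p difference was 4.72 percentage points (exact permutation test, p = 0.0794). For miR-146a-5p the share ending at the mature end was 76.3% ± 2.41 in Tut4/7 CTL (SD, n = 5) and 65.9% ± 12.4 in Tut4/7 cKO (SD, n = 4), a difference of −10.5 percentage points (exact permutation test, p = 0.0952) that shrank to −2.10 without the shared reads (exact permutation test, p = 0.540) and was −15.6 without Tut4/7 cKO replicate 4 (exact permutation test, p = 0.0357). The shared read made up 15 of the 53 miR-146a-5p reads of Tut4/7 cKO replicate 2.

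miR-155-5p ended at the mature base in 32.1% ± 5.65 of reads in Tut4/7 CTL (SD, n = 5) and 39.0% ± 8.60 in Tut4/7 cKO (SD, n = 4; exact permutation test, p = 0.206). For miR-21a-5p these shares were 49.2% ± 4.58 and 49.8% ± 3.08 (exact permutation test, p = 0.841). Shortened miR-21a-5p reads, those ending before the mature 3′ end, made up 25.2%, 25.2%, 20.8%, 25.1% and 21.8% in Tut4/7 CTL and 33.0%, 28.3%, 35.9% and 32.1% in Tut4/7 cKO. All 4 knockout libraries were above all controls, a pattern also met by 12 of the 138 miRNAs (8.7%) and one that was noticed in the values and not tested. Most of these reads lacked only the last base, an A, at 20.6% ± 1.78 of reads in Tut4/7 CTL (SD, n = 5) and 28.0% ± 2.46 in Tut4/7 cKO (SD, n = 4).

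**Figure D5:**
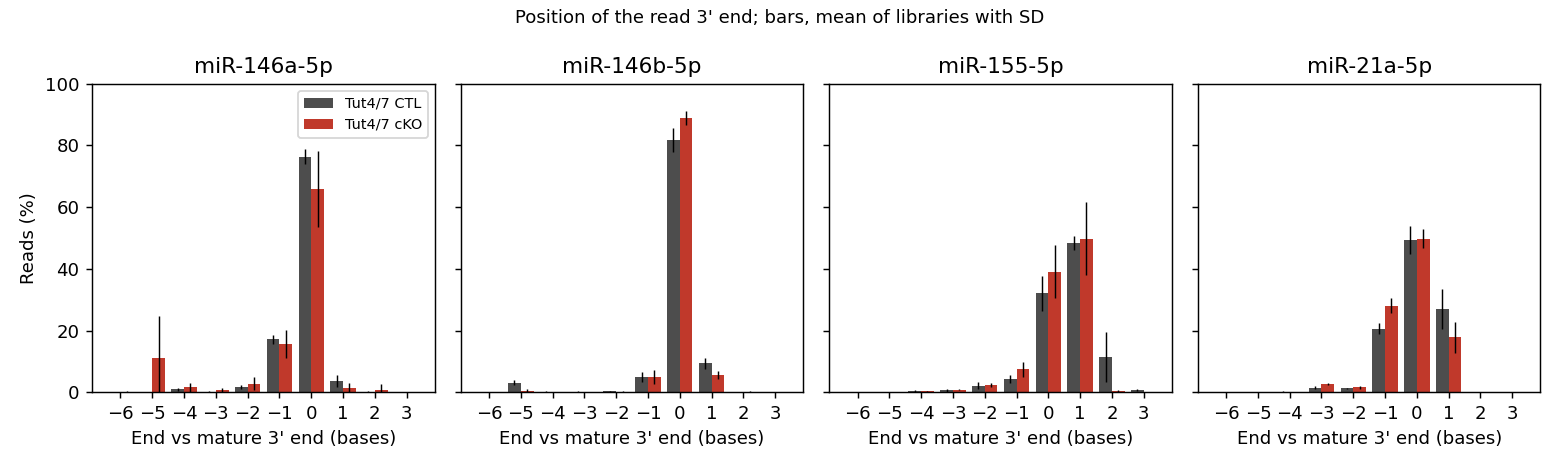
Share of reads in percent by the position of their 3′ end, in bases relative to the last mature base at 0; bars are means over 5 Tut4/7 CTL or 4 Tut4/7 cKO libraries with SD, and positive positions are extra Ts. The bar of Tut4/7 cKO at −5 for miR-146a-5p is the shared read, and for miR-21a-5p the bars at −1 average 20.6% and 28.0%.

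The opposite arms of the hairpins were scarce. miR-146a-3p was not listed, miR-155-3p had at most 16 reads in a library, miR-146b-3p had 5 to 34 and miR-21a-3p had 2 to 39. The last 2 were tested for abundance and neither was called, with log2 fold changes of 0.31 for miR-146b-3p and −0.41 for miR-21a-3p (edgeR, adjusted p = 0.804 for each). Of 11 other miRNAs linked to inflammation, 10 were listed and 1 had enough reads to test. That was miR-223-3p, a myeloid miRNA that limits granulocyte activation, whose uridylated share fell with a log2 change in the odds of −2.38 (edgeR, adjusted p = 0.0136), from 3086 of 9294 pooled reads in Tut4/7 CTL to 286 of 5839 in Tut4/7 cKO. Its abundance was not called, with a log2 fold change of −0.78 (edgeR, adjusted p = 0.632).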

How the data were processed

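sRNA-seq libraries were made with the NEBNext kit from size-selected small RNA. The authors trimmed reads with cutadapt 5.0 and mapped them with Bowtie 1.3.1, without mismatches, to miRBase mature sequences extended by 3 Ts; versions, and DESeq2 1.42.1 for their comparison, are from the submitters' processing notes, and the miRBase release is not given in the sources used here. The authors deposited raw counts per miRNA and per read sequence, with no normalization. Sums of read sequences equaled the count table, with 0 differences. A read matching several miRNAs was listed under 1 of them per library; 34 sequences changed miRNA between libraries.

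Groups and replicate numbers came from the labels, which give no batch. Counts were tested with edgeR 4.0.16 (TMM, quasi-likelihood) in R 4.3.3, for abundance where 4 or more libraries held 10 or more reads of a miRNA, and for uridylation where 5 or more did and 3 or more Tut4/7 CTL libraries held a uridylated read. An adjusted p under 0.05 was a call. Single values were compared by exact permutation, two-sided, in SciPy 1.17.1. For correlations, 2 was added to CPM. Scripts were tested on simulated data. Members, lists and tests were chosen with earlier results of these data known. The named miRNAs are the members, their opposite arms, miRNAs sharing their reads, the 3 most correlated with each member, and listed inflammation-linked and cell type markers; the shortened miR-21a-5p reads were singled out after their values were seen. Alternatives were DESeq2 1.42.0, other size factors and filters, a quasi-binomial model, uridylated reads alone, other read classes, a replicate block and omission of each library.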

Additional observations from a re-analysis of the deposited data

Results flagged for a closer look

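In 30 groups of 4 or 5 libraries, 2 had a library far from the rest by Dixon's criterion, which chance alone meets in about 1 of 20 groups. The abundance of miR-146a-5p in Tut4/7 cKO replicate 4, 8571 CPM, stood apart from the other 3 knockout libraries, at 144 to 593 CPM. The share of uridylated miR-155-5p reads with 2 or 3 Ts in Tut4/7 cKO replicate 1, 2.43%, stood apart from the other 3, at 0% to 0.217%.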

How the results depend on the processing

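Of 239 recomputed values, 222 kept their direction and their side of the threshold, which for the exact tests was set on the unadjusted value. With the uridylated reads alone, scaled by library, the log2 change was 0.29 for miR-146b-5p, 0.30 for miR-155-5p and −0.08 for miR-21a-5p, against −0.77, −0.62 and −0.79 for the odds. For miR-146a-5p it was −3.14, against −3.63. By construction the uridylated reads alone also carry any change in the level of the miRNA, which the odds leave out. The quasi-binomial model gave −4.80 for miR-146a-5p (adjusted p = 0.256) and called 28 miRNAs, against 85 with edgeR. With at least 200 reads, 73 miRNAs were tested and 48 called. As a log2 ratio, the miR-146a-5p against miR-146b-5p uridylation gap by genotype was −1.40 (exact permutation test, p = 0.429), and with reads of a single mature sequence the end share of miR-146b-5p differed by 4.72. Leaving out 1 library at a time, the abundance change ran from −1.88 to 1.53 for miR-146a-5p, 0.54 to 1.22 for miR-146b-5p, 0.14 to 1.10 for miR-155-5p and 0.25 to 0.73 for miR-21a-5p, and the uridylation change from −4.88 to −1.45 for miR-146a-5p, −0.94 to −0.64 for miR-146b-5p, −0.88 to −0.41 for miR-155-5p and −0.999 to −0.65 for miR-21a-5p. The log2 read ratio ran from −2.62 to −0.99, the end share from −15.6 to −5.51 for miR-146a-5p, and from −0.864 to 2.29 for miR-21a-5p. These omissions moved abundance calls between 0 and 2 and uridylation calls between 61 and 100. DESeq2 called 11 miRNAs for abundance and gave no adjusted p for miR-146a-5p, and edgeR without a filter on low counts called 18 of 817, against 1. The deviations of same-numbered libraries correlated at −0.125, −0.273, 0.356 and 0.149, and only replicate 3 correlated best with its own number. The labels do not say whether the numbers pair the samples, and these few correlations cannot settle it. With a replicate block the abundance change of miR-146a-5p was −1.04 (adjusted p = 0.726), and there were 0 abundance calls and 73 uridylation calls, against 1 and 74 in the same 8 libraries without the block, a comparison added after the data were seen. For miR-146a-5p, 29 and 53 reads in 2 Tut4/7 cKO libraries limit any statement.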
